A study of Mus musculus with 6 samples.

Results

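The Cyp2c genes of the mouse encode a subfamily of cytochrome P450 enzymes, and 10 of them were followed here in the liver: Cyp2c29, Cyp2c37, Cyp2c38, Cyp2c40, Cyp2c44, Cyp2c50, Cyp2c54, Cyp2c67, Cyp2c68 and Cyp2c70. They were chosen by symbol, as the rows of the expression table whose name, or a comma-separated part of it, equalled a listed symbol, and all 10 were found among 29981 rows. Liver messenger RNA had been sequenced in C57BL/6 mice in which Abca1 was deleted with a Cre recombinase driven by the albumin promoter (HSKO, n = 3) and in controls with the floxed gene, labelled wildtype (WT, n = 3). Abca1 encodes a transporter that loads cholesterol and phospholipid onto apolipoprotein A-I. Mice of both groups were without food between 9 am and 1 pm and were then killed for the liver. The albumin promoter is active in hepatocytes, so other cells of an HSKO liver may keep the gene. Age, sex and whether the controls carried Cre were not given in the sources used here.

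Cytochrome P450 enzymes hold a haem group whose iron is bound by a conserved cysteine, sit in the membrane of the endoplasmic reticulum, and take electrons from cytochrome P450 reductase and cytochrome b5 to insert an oxygen atom into their substrates. The Cyp2c enzymes of the liver oxidize drugs and also fatty acids, above all arachidonic and linoleic acid, which they turn into epoxides and hydroxylated products. Cyp2c29 is the best known arachidonic acid epoxygenase of mouse liver, and its gene is a classical target of the xenobiotic receptors CAR (Nr1i3) and PXR (Nr1i2), while Cyp2c70 acts on bile acids and makes the muricholic acids that set mouse bile apart from human bile.

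In the GENCODE annotation of the GRCm38 build, 9 of the 10 genes lay in a single cluster of 918 kb at chr19:39269405-40187333, and Cyp2c44, named Cyp2c23 in that annotation, lay 3818 kb further along at chr19:44005022-44029208. Each had 9 exons in its longest protein-coding transcript. Within the cluster the genes fell into families of near-identical copies. Cyp2c37, Cyp2c50 and Cyp2c54 shared 95.1% to 96.1% of their coding bases, and Cyp2c40, Cyp2c67 and Cyp2c68 shared 92.3% to 97.2%. Cyp2c70 and Cyp2c44 shared less than that with every other member, for example 68.3% and 64.9% with Cyp2c29. Gaps in the alignments counted as differences. The transcript used for Cyp2c40 had 1563 coding bases against 1476 for Cyp2c67 and for Cyp2c68, which lowers the shares of Cyp2c40. The stretch of 60 coding bases around the codon of the haem-binding cysteine shows how alike the 8 genes with measurable levels are. These bases are given 5′ to 3′ along the coding strand, spliced across the exon junction that the stretch spans, with capitals at each base that differs from Cyp2c29, and with the genomic span that encloses them:
Cyp2c29, chr19:39329227-39330292, plus strand: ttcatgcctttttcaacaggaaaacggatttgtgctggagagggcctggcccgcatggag
Cyp2c37, chr19:40009938-40011767, plus strand: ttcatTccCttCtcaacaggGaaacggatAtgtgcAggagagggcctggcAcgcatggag
Cyp2c50, chr19:40111399-40113474, plus strand: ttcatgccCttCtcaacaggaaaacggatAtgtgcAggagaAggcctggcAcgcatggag
Cyp2c54, chr19:40038378-40040210, minus strand: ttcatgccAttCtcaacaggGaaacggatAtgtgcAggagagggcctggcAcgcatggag
Cyp2c67, chr19:39609221-39615638, minus strand: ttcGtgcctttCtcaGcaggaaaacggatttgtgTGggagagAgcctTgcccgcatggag
Cyp2c68, chr19:39689213-39699279, minus strand: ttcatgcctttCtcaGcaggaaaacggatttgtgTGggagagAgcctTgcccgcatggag
Cyp2c70, chr19:40153717-40156741, minus strand: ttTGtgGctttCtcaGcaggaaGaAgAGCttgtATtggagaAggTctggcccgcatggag
Cyp2c44, chr19:44005582-44007042, minus strand: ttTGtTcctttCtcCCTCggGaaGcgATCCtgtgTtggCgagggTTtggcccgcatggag

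Cyp2c67 and Cyp2c68 differed from each other at 1 of these 60 bases, and Cyp2c40, not shown, was identical to Cyp2c67 over the stretch. Cyp2c37, Cyp2c50 and Cyp2c54 differed from one another at 2 to 3 bases, whereas Cyp2c70 differed from Cyp2c29 at 14 and Cyp2c44 at 18. The likeness bears on the measurements, because a read from a shared stretch cannot be placed by its letters. Of all windows of 50 bases in a transcript, 72.1% of those of Cyp2c40, 52.8% of Cyp2c67, 43.3% of Cyp2c68, 30.7% of Cyp2c50, 30.1% of Cyp2c37 and 25.7% of Cyp2c54 were also present in another Cyp2c transcript. The share was 7.45% for Cyp2c38 and 2.08% for Cyp2c29, and it was 0 for Cyp2c44 and Cyp2c70. The labels do not say how reads that matched several genes were assigned, so values of single genes within the 2 families are uncertain. The row of Cyp2c29 also names the pseudogene Cyp2c53-ps, and the reads of both cannot be told apart.

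**Figure D1:**
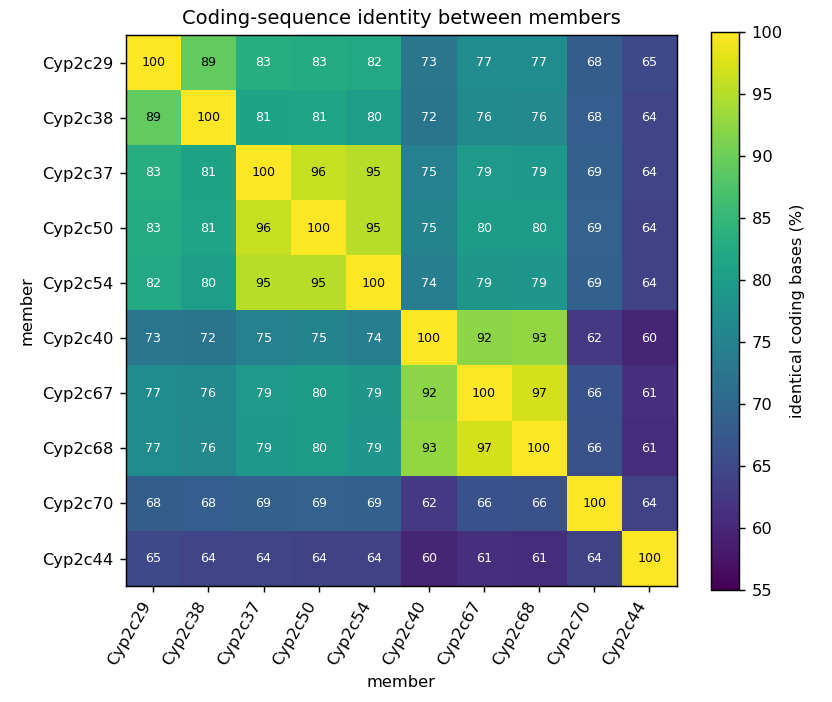
Identical coding bases (%) between each pair of the 10 members, from GENCODE transcripts, with members on both axes and the value printed in each square. Gaps count as differences, which lowers the squares of Cyp2c40, whose transcript has the longest coding sequence. The square of Cyp2c37, Cyp2c50 and Cyp2c54 stands out at 95.1% to 96.1%, and that of Cyp2c40, Cyp2c67 and Cyp2c68 at 92.3% to 97.2%.

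RefSeq promoter windows on GRCm38.p6, each running from 250 bases before to 50 bases after a gene's start, were matched for 8 of the 10 members. The 5 shown are the last 100 bases before the start of the 3 members that fell and of 2 that did not pass the test, 5′ to 3′ in the direction of transcription, with capitals marking, on either strand, the core CAAAGT, the shorter GCAAT, and the half-sites AGGTCA or, in Cyp2c50, AGTTCA:
Cyp2c29, chr19:39286944-39287043, plus strand: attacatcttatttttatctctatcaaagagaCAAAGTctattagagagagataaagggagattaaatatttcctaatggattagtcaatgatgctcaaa
Cyp2c68, chr19:39741102-39741201, minus strand: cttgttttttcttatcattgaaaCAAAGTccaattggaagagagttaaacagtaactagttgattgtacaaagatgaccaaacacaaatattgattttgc
Cyp2c50, chr19:40089579-40089678, plus strand: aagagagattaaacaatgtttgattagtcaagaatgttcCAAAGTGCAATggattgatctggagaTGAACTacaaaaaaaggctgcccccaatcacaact
Cyp2c37, chr19:39992324-39992423, plus strand: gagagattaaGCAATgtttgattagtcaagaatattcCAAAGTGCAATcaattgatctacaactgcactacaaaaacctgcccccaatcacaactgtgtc
Cyp2c70, chr19:40187334-40187433, minus strand: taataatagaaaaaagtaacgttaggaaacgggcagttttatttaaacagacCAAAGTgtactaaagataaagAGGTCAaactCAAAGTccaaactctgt

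CAAAGT, a core of the sequence recognized by the hepatocyte factor HNF4A, was present on some strand in 8 of the 8 full windows, against 14.3% of 27025 windows of all genes. GCAAT, part of the sequence recognized by C/EBP factors, was in 6 of 8 (26.5% of all windows), and the TATA box letters TATAAA were in 5 of 8 (14.2%). The nuclear receptor half-sites AGGTCA and AGTTCA were each in 2 of 8 (16.0% and 14.0%). GTTAAT, a core of HNF1 recognition, was in 2 of 8 (7.20%), and TTCNNNGAA, the form bound by STAT factors, was in 0 of 8 (8.47%). No listed motif contains another. The members are copies of an ancestral gene, so their windows are not independent, and these matches describe letters, not binding. The windows follow RefSeq starts. In GENCODE, Cyp2c29 begins further upstream, at chr19:39269405, so its printed bases lie inside the gene as annotated there.

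The libraries were shallow and unequal in depth, with 838637 to 933319 reads in WT and 631020 to 702013 in HSKO, of which a single row took 43.1% to 57.8%. The 10 members together received 480 to 759 reads per WT library and 156 to 187 per HSKO library. All values are the deposited ones, namely the reads of a row over the size factor of its library, called normalized reads here. The size factors were 1.31 to 1.77 in WT and 0.684 to 0.752 in HSKO. Their WT mean was 2.17 times the HSKO mean, against 1.35 times for total reads. Abca1 itself had a mean of 19.4 ± 4.22 in the WT group and of 2.35 ± 0.783 in the HSKO group (SD, n = 3 each; log2 fold change -2.62, limma adjusted p = 0.000862), with 20 to 36 reads in each WT library and 1 to 2 in each HSKO library. Nothing in the labels ties each sample to an animal of its own, and the p-values therefore reflect only how much these samples differ, which may be technical. In bulk tissue, fewer cells of a type and less RNA per cell cannot be told apart.

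With the deposited size factors the Cyp2c members as a group were lower in HSKO livers. The summed value of the 10 was 366, 426 and 428 normalized reads in WT replicates 1 to 3 and 254, 227 and 249 in HSKO replicates 1 to 3, so the groups did not overlap, and the WT mean was 1.67 times the HSKO mean. Of the 8 members with a mean of at least 10, the limit for testing, 3 fell (Cyp2c29, Cyp2c50 and Cyp2c68; limma on log2(value + 1), Benjamini-Hochberg adjusted p below 0.05) and 0 rose, while 11.6% of all 2750 rows tested were called lower and 28.5% higher. The same 3 members were the ones with all 3 HSKO libraries below all 3 WT libraries, a pattern seen in 20.1% of all rows tested. All 8 had a log2 fold change below 0, with a median of -0.72 against 0.07 over all rows tested. Hepatocyte markers were lower as well: 9 of 16, transferrin, transthyretin and fibrinogen chains among them, fell, 0 rose, and their median was -0.64. That count of 9 became 0 without HSKO replicate 1 or 2, 4 without WT replicate 2, 6 without WT replicate 3, 2 with no trend and 1 with no limit on the mean, and 16 under scaling to total reads, where 38% of all rows were called lower. Their summed value was 17997 ± 1493 in WT and 12138 ± 2573 in HSKO, a ratio of 1.48, and its part in the fall of the Cyp2c genes was not tested.

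**Figure D2:**
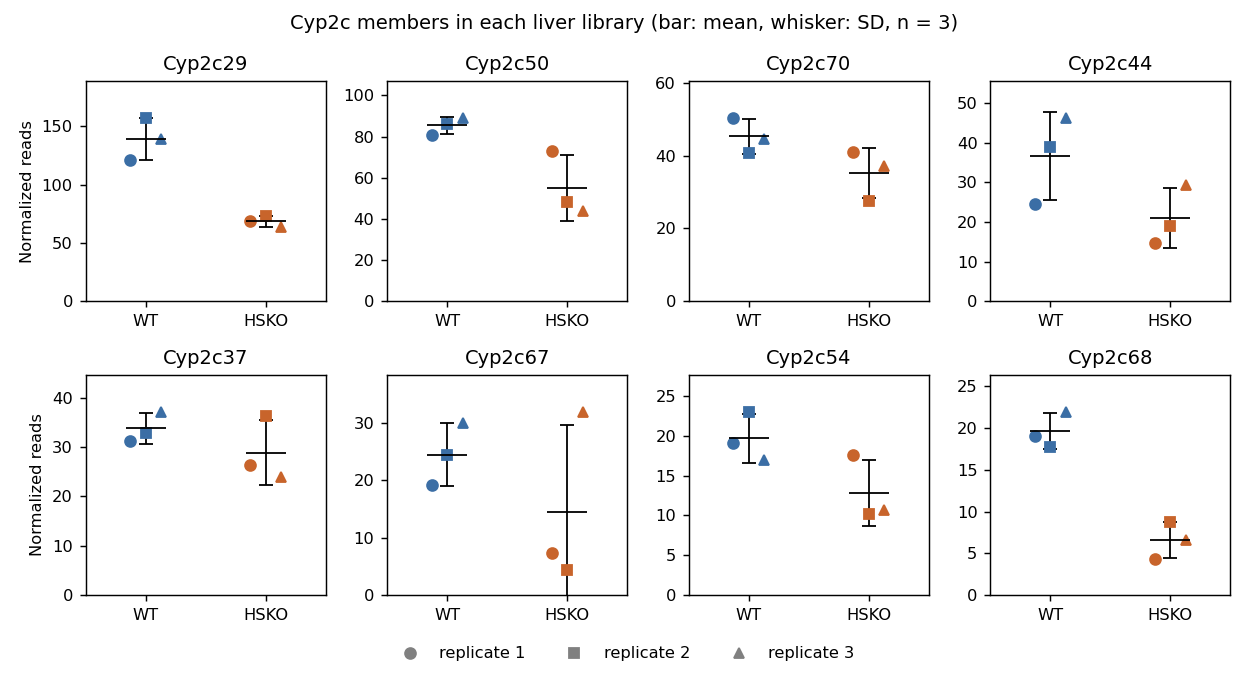
Normalized reads (vertical axes, each starting at 0) of the members with a mean of at least 10 in the 3 WT and 3 HSKO libraries; symbols are replicates, bars the mean and whiskers the SD, and the lower whisker of Cyp2c67 in HSKO is cut at 0. For Cyp2c29, Cyp2c50 and Cyp2c68 every HSKO library sits below every WT library, and for Cyp2c67 HSKO replicate 3 at 31.9 sits above all WT libraries.

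Cyp2c29, the arachidonic acid epoxygenase, had the highest level of the members and fell by about 1 log2 unit. Its row held 121, 157 and 139 normalized reads in WT replicates 1 to 3 and 68.7, 72.7 and 63.8 in HSKO replicates 1 to 3. The HSKO libraries lay close together and far below the lowest WT library. The means were 139 ± 18.0 and 68.4 ± 4.44 (SD, n = 3 each), a log2 fold change of -1.01 (SE 0.23, 95% interval -1.50 to -0.52, limma adjusted p = 0.00273). From the reads alone, WT was 2.05 times HSKO (exact 95% interval 1.71 to 2.47, for counting error only). Under 20 alternative settings the call was lost in 1, scaling to the hepatocyte markers, where the log2 fold change was -0.43 (limma adjusted p = 0.283).

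Cyp2c68, a close copy of Cyp2c67, had the largest fall on the log2 scale among the 3 members called. Its values were 19.1, 17.8 and 22 normalized reads in WT replicates 1 to 3 and 4.38, 8.72 and 6.65 in HSKO replicates 1 to 3, without overlap. They rest on 25, 27 and 39 reads in WT and on 3, 6 and 5 reads in HSKO. The means were 19.6 ± 2.16 and 6.59 ± 2.17, a log2 fold change of -1.48 (SE 0.37, 95% interval -2.26 to -0.70, limma adjusted p = 0.00436). A still lower fold change was seen in 0.909% of all rows tested. The ratio of reads, WT over HSKO, was 3.0 with a counting interval of 1.70 to 5.70. Scaling to the hepatocyte markers ended this call too (log2 fold change -0.95, limma adjusted p = 0.0646), and it was kept in the other 18 alternatives in which the gene was tested.

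Cyp2c67, the closest relative of Cyp2c68 with measurable levels, was not called, and a single library decided its value. It stood at 19.1, 24.3 and 29.9 in WT replicates 1 to 3 and at 7.31, 4.36 and 31.9 in HSKO replicates 1 to 3. HSKO replicates 1 and 2 were below every WT library and replicate 3 was above every WT library, with 24 reads (exact 95% interval 15.4 to 35.7) against 5 (1.62 to 11.7) and 3 (0.619 to 8.77). With all libraries the log2 fold change was -1.14 (SE 0.47, 95% interval -2.12 to -0.16, limma adjusted p = 0.0586), and without HSKO replicate 3 it was -1.91 (limma adjusted p = 0.00335). In that library Cyp2c68, with 5 reads, did not stand apart. Summing Cyp2c40, Cyp2c67 and Cyp2c68, which removes any exchange of reads among them, gave 38.2, 42.1 and 54.7 in WT and 13.2, 13.1 and 38.6 in HSKO. Their relative Cyp2c69, which had 1 read in each group, was not included. The sum fell by 1.19 on the log2 scale (SE 0.35, limma adjusted p = 0.0109), and HSKO replicate 3 reached just above the lowest WT library. Its call was lost without WT replicate 3 (limma adjusted p = 0.0553), without HSKO replicate 1 (limma adjusted p = 0.0700) or 2 (limma adjusted p = 0.0631), and under scaling to the hepatocyte markers (limma adjusted p = 0.155).

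The other family, Cyp2c37, Cyp2c50 and Cyp2c54, holds enzymes that oxidize arachidonic and linoleic acid, and its members moved by unequal amounts. Cyp2c50 stood at 80.9, 86.2 and 89.1 in WT replicates 1 to 3 and at 73.1, 48.0 and 43.9 in HSKO replicates 1 to 3. The groups did not overlap, though HSKO replicate 1 came close to the WT range. The means were 85.4 ± 4.17 and 55 ± 15.8, a log2 fold change of -0.66 (SE 0.26, 95% interval -1.20 to -0.13, limma adjusted p = 0.0461). This call was near the threshold and was lost in 10 of 20 alternatives, including 5 of the 6 in which a library was left out: WT replicate 1 (limma adjusted p = 0.0515), 2 (0.124) or 3 (0.0975), or HSKO replicate 2 (0.147) or 3 (0.141).

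Cyp2c54 was at 19.1, 23.0 and 16.9 in WT replicates 1 to 3 and at 17.5, 10.2 and 10.6 in HSKO replicates 1 to 3, so the groups overlapped. Its log2 fold change was -0.61 (SE 0.32, 95% interval -1.29 to 0.06, limma adjusted p = 0.134). Cyp2c37 was at 31.3, 32.9 and 37.2 in WT and at 26.3, 36.4 and 23.9 in HSKO. HSKO replicate 2 lay within the WT range and the other HSKO libraries lay below it. The log2 fold change of Cyp2c37 was -0.24 (SE 0.27, 95% interval -0.80 to 0.32, limma adjusted p = 0.485), an interval that includes both no change and the change of Cyp2c50. The 3 rows summed to 131, 142 and 143 in WT and 117, 94.5 and 78.5 in HSKO, without overlap, and the sum did not pass the test (log2 fold change -0.54, SE 0.24, limma adjusted p = 0.0778). It was called lower in 7 alternatives, namely 4 of the 5 other scalings, DESeq2, edgeR and a minimum mean of 50, and its sign reversed under the remaining scaling, to the hepatocyte markers (log2 fold change 0.045, limma adjusted p = 0.935).

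Cyp2c44 and Cyp2c70 share no window of 50 bases with another Cyp2c transcript, so no exact match of that length could move reads between their rows and those of relatives. Shorter or inexact matches were not examined. Cyp2c44, an arachidonic acid epoxygenase of liver and kidney, stood at 24.4, 38.8 and 46.2 in WT replicates 1 to 3 and at 14.6, 18.9 and 29.3 in HSKO replicates 1 to 3. The lowest WT library was below the highest HSKO library, and the spread within both groups was wide. Its log2 fold change of -0.78 (SE 0.31, 95% interval -1.43 to -0.13) missed the threshold narrowly (limma adjusted p = 0.0520). The gene was called lower in 9 of 19 alternatives, among them without WT replicate 1 (limma adjusted p = 0.0167) and without HSKO replicate 3 (limma adjusted p = 0.0176).

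Cyp2c70, the enzyme of muricholic acid synthesis, stood at 50.4, 40.8 and 44.6 in WT replicates 1 to 3 and at 40.9, 27.6 and 37.2 in HSKO replicates 1 to 3. HSKO replicate 1 was level with the lowest WT library. The means were 45.2 ± 4.82 and 35.3 ± 6.86, with a log2 fold change of -0.36 (SE 0.26, 95% interval -0.91 to 0.18, limma adjusted p = 0.273).

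Cyp2c38 and Cyp2c40, both known to oxidize arachidonic acid, were close to the limit of detection and did not reach a mean of 10. Cyp2c38 had 9 reads in the 3 WT libraries together, 7 of them in WT replicate 2, and 1 read in the 3 HSKO libraries. Cyp2c40 had 5 reads in WT, all in WT replicate 3, and 1 in HSKO. Tested without the limit on the mean, neither passed (limma adjusted p = 0.469 for Cyp2c38 and 0.844 for Cyp2c40), and a difference was not detectable at this depth. Of the other Cyp2c rows in the table, Cyp2c39, Cyp2c65 and Cyp2c66 had 0 reads in every library, where 3 reads in a library, worth 1.69 to 4.38 normalized reads, is the limit taken for a count of 0 (the exact 2-sided 95% interval used for read counts elsewhere reaches 3.69 reads). Cyp2c55 had 8 reads in WT and 0 in HSKO, and Cyp2c69 had 1 in each group.

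**Figure D3:**
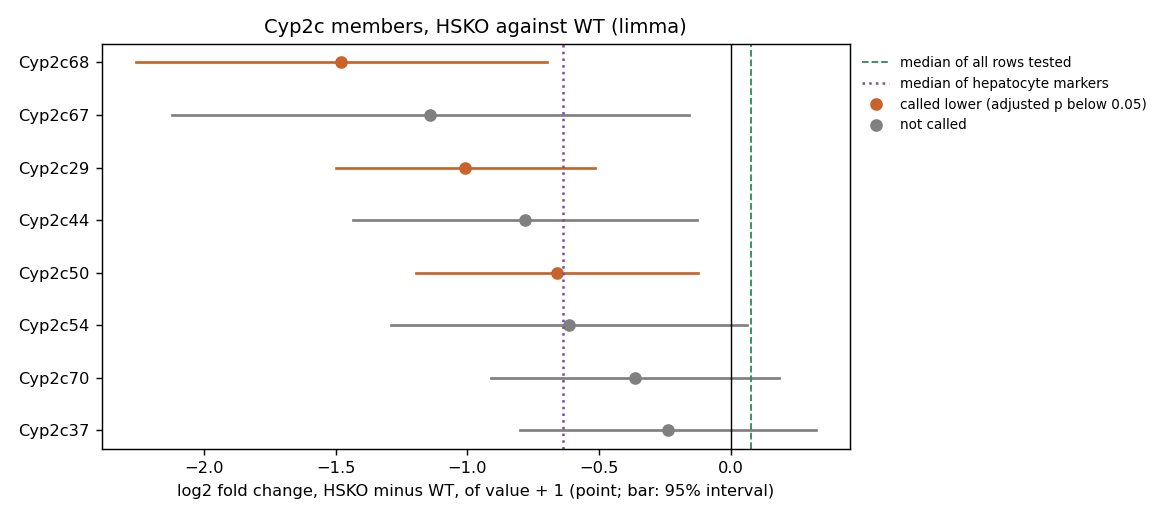
Log2 fold change, HSKO minus WT (horizontal axis, points), with its 95% interval (bars) for the 8 members tested; orange marks members called lower, and vertical lines mark 0, the median of all rows tested (0.07) and the median of the hepatocyte markers (-0.64). All 8 points lie below 0, from -1.48 for Cyp2c68 to -0.24 for Cyp2c37, and 7 of the 8 intervals include the hepatocyte median; that of Cyp2c68 does not.

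How many members were called lower changed with the scaling of the libraries and with the tool. With the deposited size factors 3 of 8 were lower. DESeq2 on the recovered reads gave 3 of 8, with 11.8% of all rows lower, and quantile normalization gave 5 of 8, with 18.3%. The edgeR test with TMM, which changed the test as well as the scaling, gave 5 of 8 with 21.9%, and upper quartile scaling gave 7 of 8 with 25.6%. Scaling to reads outside the most abundant row gave 8 of 8 with 33.2%, and scaling to total reads gave 8 of 8 with 38%. Scaling to the summed hepatocyte markers gave 0 of 8 with 0.8%, and there Cyp2c37 and Cyp2c70 turned to log2 fold changes of 0.33 and 0.21, neither of which passed the test (limma adjusted p = 0.477 and 0.673). These settings moved the median of all rows by between -0.64 and 0.55 log2 units against the deposited values.

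**Figure D4:**
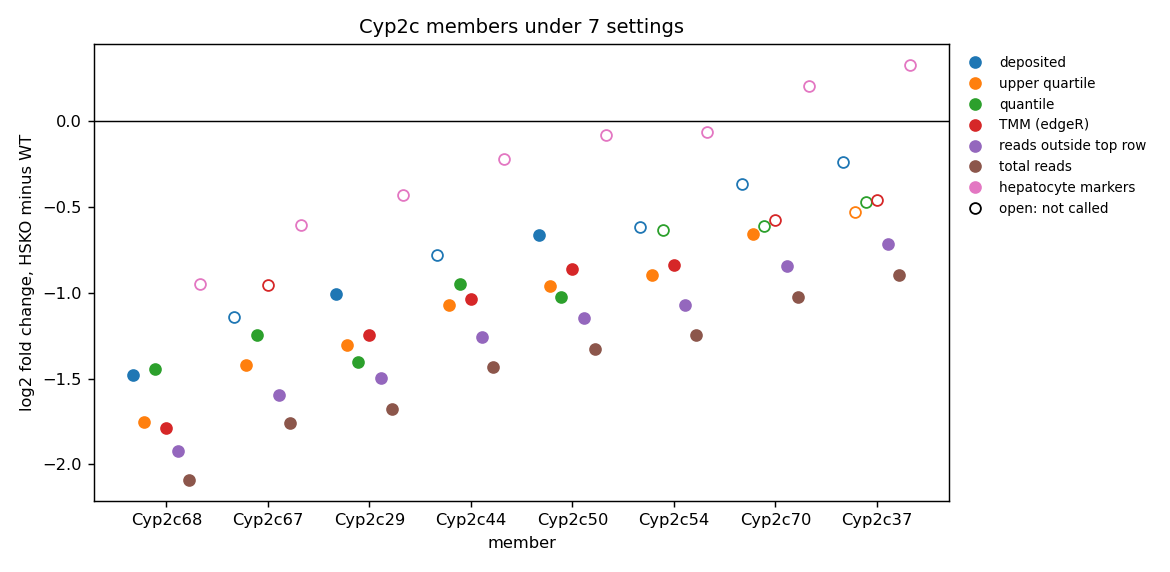
Log2 fold change, HSKO minus WT (vertical axis), of the 8 members tested (horizontal axis) under the deposited scaling, 5 other scalings and edgeR with TMM; filled points were called lower and open points were not called. Every point is below 0 except Cyp2c37 and Cyp2c70 under hepatocyte-marker scaling, at 0.33 and 0.21, and all 8 members are filled under scaling to total reads.

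Ratios within a library do not move with that scaling. Relative to the sum of the other measured members, Cyp2c29 was lower by 0.41 log2 units in HSKO and Cyp2c68 by 0.92, each with all 3 HSKO libraries below all 3 WT libraries, while Cyp2c37 was higher by 0.55 with all 3 above. Each of these differences gave p = 0.1 in a 2-sided exact permutation test, the smallest p that 3 against 3 libraries allow, so none can pass 0.05. The difference of Cyp2c37 was 0.29 without HSKO replicate 2. The other 5 members gave exact p-values of 0.2 to 0.8. Relative to the hepatocyte marker sum, Cyp2c29 was again lower in all 3 HSKO libraries (log2 difference -0.43) and so was Cyp2c68 (-1.04), both with exact p = 0.1. Without HSKO replicate 3 the difference of Cyp2c29 was -0.22. The remaining 6 members lay between -0.67 (Cyp2c67) and 0.34 (Cyp2c37), with exact p-values of 0.4 to 1, and these differences rest on single libraries too, since without HSKO replicate 2 they were -0.10 for Cyp2c67 and 0.13 for Cyp2c37.

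Per kilobase of the longest protein-coding transcript, which allows genes to be compared, the order of levels was led in both groups by Cyp2c29, Cyp2c50 and Cyp2c70. In WT, Cyp2c29 made up 34.4% ± 2.54 of the summed level per kilobase of the 10 members, Cyp2c50 20.8% ± 0.864 and Cyp2c70 11.7% ± 2.27 (SD, n = 3). They were followed by Cyp2c44 (8.30% ± 1.96), Cyp2c37 (8.18% ± 0.492), Cyp2c67 (6.18% ± 0.951), Cyp2c68 (5.03% ± 0.588) and Cyp2c54 (4.88% ± 0.795), and Cyp2c38 and Cyp2c40 were each below 1% in every library. In levels per kilobase, Cyp2c29 was above Cyp2c50 in WT without overlap and Cyp2c50 above Cyp2c70 without overlap, but from Cyp2c70 down to Cyp2c54 each gene overlapped the next in the order.

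In HSKO the shares were 28.4% ± 3.42 for Cyp2c29, 22.3% ± 5.58 for Cyp2c50, 15.0% ± 2.08 for Cyp2c70 and 11.8% ± 3.46 for Cyp2c37, and Cyp2c29 and Cyp2c50 now overlapped in level per kilobase. Cyp2c68 went from 5.03% to 2.86% ± 1.11 and passed below Cyp2c54 (5.24% ± 1.45) in the order. The share of Cyp2c67 in HSKO, 6.08% ± 6.25, was set by replicate 3, in which it was 13.3% against 2.97% and 1.99% in replicates 1 and 2.

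**Figure D5:**
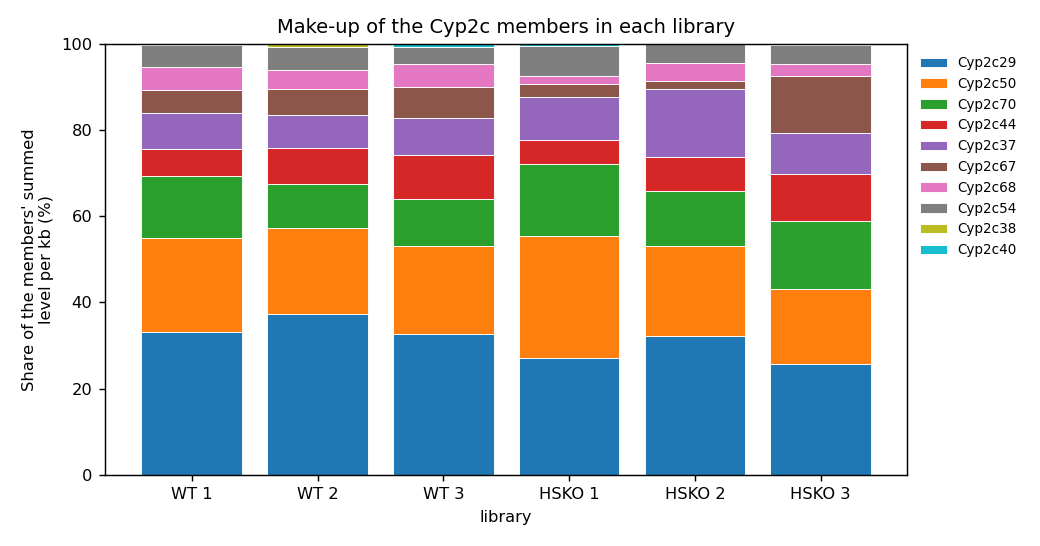
Share of the summed level per kilobase (%, vertical axis) that each of the 10 members (colours) held in each of the 6 libraries (horizontal axis). Cyp2c29 holds 32.6% to 37.3% in WT and 25.8% to 32.3% in HSKO, and Cyp2c67 holds 13.3% in HSKO replicate 3.

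Across the 6 libraries the members did not vary as a single unit. The Pearson r of log2(value + 1) was highest for Cyp2c50 and Cyp2c54 (0.93) and for Cyp2c29 and Cyp2c68 (0.92), and lowest for Cyp2c37 with Cyp2c67 (-0.15) and with Cyp2c70 (-0.12). These are descriptions over 6 points that fall into 2 groups and share size factors. Among the rows most like the mean profile of the members, out of 686 other rows with a mean of at least 50, were Sord (sorbitol dehydrogenase), Cfi and Cfhr2 (complement regulation) and Hspa5 (chaperone of the endoplasmic reticulum), each with r = 0.99. Such likeness was common, since 61 rows (8.89%) had an r above 0.9. Sord, for example, had means of 150 ± 5.17 (WT) and 70 ± 6.79 (HSKO).

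Genes that encode known regulators of Cyp2c transcription were called in both directions. Of 13 tested, 3 rose (Nr1i3, Cebpb and Foxa1), 3 fell (Ppara, Onecut1 and Ghr) and 7 did not pass the test, with a median log2 fold change of -0.06. Over all rows tested 28.5% rose and 11.6% fell, and 3 of 13 rises is no larger a share than the former. The count of falls became 1 without WT replicate 2 or WT replicate 3, 0 under scaling to the hepatocyte markers and 7 under scaling to total reads, where 0 rose. Nr1i3, which encodes the receptor CAR, was at 41.2, 37.5 and 38.4 normalized reads in WT replicates 1 to 3 and 108, 71.3 and 112 in HSKO replicates 1 to 3, without overlap. It rose by 1.27 on the log2 scale (SE 0.26, limma adjusted p = 0.00114), opposite in sign to Cyp2c29, and its call was lost in 1 of 20 alternatives, scaling to total reads (log2 fold change 0.60, limma adjusted p = 0.0794). Cebpb, a C/EBP factor of the acute phase response, rose by 1.19 (limma adjusted p = 0.00142), a call lost under scaling to total reads. Foxa1, a pioneer factor of liver enhancers, rose by 1.10 (limma adjusted p = 0.00939), a call lost under scaling to total reads, under scaling to reads outside the most abundant row and without HSKO replicate 2 (limma adjusted p = 0.264, 0.0897 and 0.0570).

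Ppara, the fatty acid receptor that drives the fasting response, was at 39.7, 42.1 and 45.1 in WT replicates 1 to 3 and 17.5, 14.5 and 26.6 in HSKO replicates 1 to 3. It fell by 1.12 on the log2 scale (limma adjusted p = 0.00429), a call lost under scaling to the hepatocyte markers (limma adjusted p = 0.164). Hnf4a, whose factor recognizes a sequence with the CAAAGT core seen in all 8 promoter windows, was at 69.9 ± 4.54 in WT and 67.5 ± 11.1 in HSKO (log2 fold change -0.06, limma adjusted p = 0.861), a value that ranged from -0.73 to 0.52 over the scalings.

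Other genes on which CAR and PXR act were lower or not called. Of 16 tested, 7 fell and 0 rose, where 11.6% of all rows tested fell and 28.5% rose. Their median log2 fold change was -0.64, equal at this precision to that of the hepatocyte markers. The count of 7 became 1 under scaling to the hepatocyte markers (0.8% of all rows lower) and 14 under scaling to total reads (38%). It was 3 without WT replicate 3 (5.71%) and 4 without HSKO replicate 2 (8.55%). Ephx1, Por, Alas1, Cyp1a2 and Aldh1a1 are also counted in other lists here. Abcc2, a canalicular export pump, fell by 1.41 (limma adjusted p = 0.000773) and was called lower in each of its 19 alternatives, and Aldh1a1, a retinaldehyde dehydrogenase, fell by 1.42 (limma adjusted p = 0.00119). Cyp3a11, a main PXR target, had means of 423 ± 98.4 (WT) and 301 ± 62 (HSKO) and missed the threshold (limma adjusted p = 0.127). Cyp2b10, a classical CAR target, and its relatives Cyp2b9 and Cyp2b13 were listed at 0 in all 6 libraries.

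Genes listed as partners of the enzymes were lower in part, but with the deposited scaling the microsomal electron donors Por and Cyb5a were not called. Of 4 listed genes tested, 2 fell and 0 rose, where 11.6% of all rows tested fell. Cyb5b, a cytochrome b5 of the outer mitochondrial membrane, fell by 1.34 (limma adjusted p = 0.00152). Pgrmc1, a haem-binding membrane protein, fell by 0.73 (limma adjusted p = 0.0228). The Pgrmc1 call was lost without WT replicate 2 or 3 or HSKO replicate 2 (limma adjusted p of 0.0761, 0.0695 and 0.133). Cyb5a, the microsomal cytochrome b5, had a log2 fold change of -0.53 (limma adjusted p = 0.0749) that turned to 0.055 under hepatocyte-marker scaling, which also ended the calls of Cyb5b and Pgrmc1 (limma adjusted p = 0.0971 and 0.752). Por, the reductase on which all microsomal P450 enzymes depend, had means of 63.6 ± 3.81 (WT) and 64.8 ± 18.7 (HSKO), and its log2 fold change ranged from -0.68 to 0.57 over the scalings. Of 3 haem synthesis genes tested, Fech, which inserts the iron, fell by 0.79 (limma adjusted p = 0.0461), but that call was lost in 9 of 19 alternatives, including 4 of the 6 in which a library was left out (limma adjusted p of 0.0876 without WT replicate 2, 0.219 without WT replicate 3, 0.129 without HSKO replicate 1 and 0.0504 without HSKO replicate 3).

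Of 4 tested genes listed for the release or activation of fatty acids or the clearance of epoxides, 3 fell and 0 rose (11.6% of all rows were called lower). Acsl1, which activates long-chain fatty acids, fell by 1.2 on the log2 scale (limma adjusted p = 0.00126). Ephx1, the microsomal epoxide hydrolase, fell by 1.03 (limma adjusted p = 0.0133). Ephx2, the soluble epoxide hydrolase that turns epoxides of fatty acids into diols, fell by 0.83 (limma adjusted p = 0.0145). Ephx2 was at 90.8, 95.4 and 140 in WT replicates 1 to 3 and 51.2, 64.0 and 65.2 in HSKO replicates 1 to 3. The Ephx1 and Ephx2 calls were lost without WT replicate 3 (limma adjusted p = 0.115 and 0.0702), that of Ephx1 without HSKO replicate 2 (limma adjusted p = 0.0554) and that of Ephx2 without HSKO replicate 1 (limma adjusted p = 0.0634). Pla2g6, a phospholipase that releases fatty acids from membranes, did not pass the test (log2 fold change 0.52, limma adjusted p = 0.185). Scaling to the hepatocyte markers ended the 3 calls and called Pla2g6 higher (log2 fold change 1.07, limma adjusted p = 0.0200), and scaling to total reads turned Pla2g6 to -0.13.

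Several Cyp2c genes, Cyp2c29 among them, are known to be expressed mostly by hepatocytes near the central vein, and markers of that zone moved with them. Of 11 pericentral markers tested, 9 fell and 0 rose (median log2 fold change -0.94), among them Glul, which makes glutamine, Cyp2e1, Oat and Rgn. Their summed value was 2157 to 2266 in WT and 946 to 1381 in HSKO, without overlap, and 1 of 15 was at 0 in every library. Of 12 periportal markers tested, 0 fell and 2 rose (11.6% and 28.5% of all rows), with a median of -0.05 and a summed value of 1319 ± 188 in WT and 1386 ± 132 in HSKO. The 2 that rose, Pck1 and Sds, are enzymes of gluconeogenesis and serine breakdown that fasting raises, and both calls were lost under upper quartile scaling and without WT replicate 2 (limma adjusted p = 0.0742 and 0.0744). Pck1 turned to a log2 fold change of -0.00027 under scaling to total reads, and 1 of the 2 calls was lost without WT replicate 1 or any HSKO replicate. Scaling to total reads called 11 of 11 pericentral and 5 of 12 periportal markers lower beside 38% of all rows, and scaling to the hepatocyte markers called 1 and 0 lower beside 0.8% of all rows. Whether zonation had a part in the fall of the Cyp2c genes was not tested.

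Markers of other liver cells were few in reads. Their summed values in WT and HSKO were 79.7 ± 26.1 and 66.2 ± 18.9 for 12 Kupffer cell genes, 42.4 ± 6.45 and 27.3 ± 11 for 10 endothelial genes, 38.5 ± 2.27 and 18.8 ± 4.33 for 10 stellate cell genes, and 13.1 ± 2.98 and 9.56 ± 6.92 for 6 cholangiocyte genes, of which 2 were at 0 in every library. Of 11 leukocyte genes 6 were at 0 in every library, and the sums were 2.39 ± 1.35 and 1.82 ± 2.02. None of these sums was higher in HSKO by its mean, and their part in the Cyp2c differences was not tested.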

How the data were processed

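The authors deposited a signal per gene row and library, reads divided by a DESeq size factor. FastQC 0.11.3, Bowtie, RSEM 1.2.9, DESeq 1.16.0 and the mm10 build are named per the submitters' processing notes, without their roles; the annotation, strand setting and treatment of reads matching several genes were not given in the sources used here. Dividing each value by the value of 1 read gave whole reads for 100% of values (tolerance 0.001), and these gave the depth. Of 29981 rows, 712 name several genes and 13807 were above 0 in some library. No 2 libraries of a group held identical values, and the chi-square per degree of freedom between them was 2.76 to 13.6.

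The test was limma 3.58.1 (R 4.3.3) with a mean-variance trend, applied to log2(value + 1) of the 2750 rows whose mean reached 10; it was 2-sided, with Benjamini-Hochberg adjustment at 0.05. The added 1 shrinks fold changes of low genes. Adjusted p-values are over all rows tested. On data simulated with known changes and an assumed spread, the test recovered 29 of 78 changes of 2-fold and 90 of 92 of 4-fold. Of its 121 calls there, 2 were false. A gene that did not pass may therefore still differ by 2-fold. Intervals of reads are exact at 95%. They and the limit of 3 reads that a count of 0 allows cover counting error alone.

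Alternatives were pseudocounts of 0.5 and 10, no limit on the mean, a minimum mean of 50, 5 other scalings, no trend, the replicate number as a block, DESeq2 1.42.0, edgeR 4.0.16 with TMM, and each library left out. Scaling to reads outside the most abundant row and the use of coding sequences at 90% identity (GENCODE M21) to sum near-identical members were chosen after seeing the data; the planned grouping by protein identity was not run. The members and lists were chosen with earlier results of these data known. Named genes were all members, other Cyp2c rows, Abca1, up to 4 genes per pathway list by smallest p, and the 5 rows most like the members' mean profile, of which 1 is not reported here. A few others (Onecut1, Ghr, Hnf4a, Cyp3a11, Cyp2e1, Glul and the Cyp2b genes) were named as members of a list after their values were seen.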

Additional observations from a re-analysis of the deposited data

How the results depend on the processing

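Of the 8 members tested, 3 were called lower with the deposited scaling, 7 under upper quartile scaling, 5 under quantile normalization, 8 under scaling to total reads, 8 under scaling to reads outside the most abundant row, 5 with edgeR and TMM, and 0 under scaling to hepatocyte markers. The last also reversed Cyp2c37 (log2 fold change 0.33), Cyp2c70 (0.21) and the sum of Cyp2c37, Cyp2c50 and Cyp2c54 (0.045); these differences follow from dividing by another total. Over all rows, higher and lower calls numbered 783 and 320 as deposited, 580 and 703 under upper quartile scaling, 595 and 502 under quantile normalization, 1106 and 22 under hepatocyte scaling, 221 and 1044 under total reads, 429 and 913 outside the most abundant row, 684 and 601 with TMM, and 584 and 325 with DESeq2. Lower calls over all rows were 211 of 13807 without a limit on the mean, 118 of 688 with a minimum of 50, 159 without WT replicate 2 and 157 without WT replicate 3. With the minimum of 50, 391 of the 688 rows were called higher, and their median log2 fold change was 0.88. With each library left out in turn, 2 to 4 members were called lower. No member was called higher under any of these settings.

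Whether the replicate numbers pair the samples is not known. Deviations from the group mean correlated at -0.03, -0.03 and -0.02 for libraries with the same number. For libraries with different numbers they correlated at -0.03 to 0.05. With so few libraries these values cannot exclude a pairing. With the replicate number as a block, 4 members were lower (Cyp2c29, Cyp2c44, Cyp2c67 and Cyp2c68), and 269 rows of all those tested were lower and 751 higher. Depth limited the low members most, since Cyp2c68 rests on 3 to 6 reads per HSKO library and Cyp2c38 and Cyp2c40 on 1 read in HSKO in all.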
